A study of Mus musculus with 16 samples.

Results

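This account concerns 7 genes read in type 2 conventional dendritic cells and their neighbours, Cd209a, Ccl17, Epcam, Sirpa, Mgl2, Itgam and Itgax, out of 31053 gene rows, followed across dendritic cell subsets, macrophages and monocytes of 4 tumor groups. The genes were chosen by name with earlier results of these libraries in view, Ccl17 for its higher level in the dendritic cells of untreated MC38 than of untreated Panc02-SIY tumors. Ccl17 had also been named for the interaction of tumor and radiation in dendritic cells. Both contrasts are therefore given for Ccl17 as descriptions with no test. The irradiated libraries entered that interaction, so tests of Ccl17 that use them are not independent of its choice. The study asked how radiation changes the immune cells of 2 tumors that respond to it differently. MC38, a colorectal carcinoma line, or Panc02-SIY, a pancreatic adenocarcinoma line made to express the SIY model antigen, was grown subcutaneously in the right flank of C57BL/6J mice, 6 to 8 weeks old at the start. The groups were untreated MC38, irradiated MC38, untreated Panc02-SIY and irradiated Panc02-SIY, with 4 libraries each. Irradiated tumors had received a single dose of 12 Gy and were taken 24 h later, and live CD45+ leukocytes were enriched on magnetic beads, sorted and run as single cells with 3′ chemistry. All hosts were otherwise unmodified, and both tumors are transplanted lines placed under the skin, outside the organ each came from.

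Conventional dendritic cells take up antigen in tissues and present it to T cells. The type 1 lineage, which carries XCR1 and CLEC9A, is known for cross-presentation to CD8+ T cells, whereas the type 2 lineage carries SIRPα and CD11b and is known for presentation on MHC class II to CD4+ T cells. Mature dendritic cells rich in regulatory molecules, often called mregDCs, raise CCR7 and travel to lymph nodes. Type 2 dendritic cells share many surface proteins with monocytes and macrophages, so none of the 7 genes marks them alone.

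The products of the 7 genes fall into 3 roles. Ccl17 encodes a secreted chemokine that attracts T cells through the receptor CCR4. Cd209a, a mouse relative of human DC-SIGN, and Mgl2, the galactose-binding lectin CD301b, encode C-type lectins of the cell surface. Sirpa encodes the receptor of the phagocytosis checkpoint ligand CD47, Itgam and Itgax encode the α chains of the β2 integrins CD11b and CD11c, and Epcam encodes an adhesion protein of epithelia that Langerhans cells and some dendritic cells also carry.

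In GENCODE M21 on GRCm38 (the same assembly as mm10), Ccl17 lies at chr8:94810453-94812036 on the plus strand and Cd209a at chr8:3743397-3748984 on the minus strand. Mgl2 lies at chr11:70130329-70137550, 18646 bases from its close relative Clec10a. Of the 50-base windows in the last 500 bases of its own transcripts, 4.21% also occur in other genes, none of them Clec10a, whereas 20.4% of those of Clec10a occur in Mgl2, so that a part of Clec10a reads could not be placed with one gene. For the other 6 members no such window was found in another gene. Itgam (chr7:128062640-128118491) and Itgax (chr7:128129547-128150657) are neighbours 11055 bases apart on the plus strand, Epcam lies at chr17:87635979-87651129 and Sirpa at chr2:129592835-129632228, both on the plus strand.

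The start-site regions of the chemokine and the lectins are printed because these genes were read together in one MC38 dendritic cell cluster described later. They are RefSeq sequences of GRCm38.p6, from 250 bases before to 50 bases after the gene start, 5′ to 3′ on the strand of the gene, with capitals on matches to STAT6 (TTC and GAA with any 4 bases between them), STAT5 (the same with any 3 bases between), PU.1 (GAGGAA) or the PU.1 and IRF composite element (GGAA and GAAA with any 2 bases between), searched on both strands. The Ccl17 region is chr8:94810203-94810502, the Mgl2 region chr11:70130107-70130406 and the Cd209a region chr8:3748935-3749234.
Ccl17: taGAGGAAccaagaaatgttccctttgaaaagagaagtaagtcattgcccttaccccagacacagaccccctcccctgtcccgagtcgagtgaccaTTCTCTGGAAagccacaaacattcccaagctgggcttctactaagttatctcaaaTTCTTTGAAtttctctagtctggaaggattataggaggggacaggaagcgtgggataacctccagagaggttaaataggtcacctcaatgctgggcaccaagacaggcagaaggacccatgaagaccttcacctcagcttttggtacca
Mgl2: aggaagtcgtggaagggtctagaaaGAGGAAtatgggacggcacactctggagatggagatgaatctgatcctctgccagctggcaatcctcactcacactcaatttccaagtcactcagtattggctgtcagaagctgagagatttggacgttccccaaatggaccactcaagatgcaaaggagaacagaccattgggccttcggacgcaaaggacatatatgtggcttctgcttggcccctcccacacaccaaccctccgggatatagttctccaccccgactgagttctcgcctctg
Cd209a: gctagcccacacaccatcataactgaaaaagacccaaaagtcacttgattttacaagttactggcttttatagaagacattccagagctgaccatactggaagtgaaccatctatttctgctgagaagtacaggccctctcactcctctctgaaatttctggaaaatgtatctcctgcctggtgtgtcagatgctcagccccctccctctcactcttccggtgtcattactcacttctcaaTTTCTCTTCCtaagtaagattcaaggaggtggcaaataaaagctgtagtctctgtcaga

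The Ccl17 region held a PU.1 match starting at base -248, a STAT6 match at -154 and a STAT5 match at -99, counted from the gene start. Among 32851 regions of the same length, 6.95% held the STAT6 letters, 8.30% the STAT5 letters, 28.3% the PU.1 letters and 2.72% the composite element. The Mgl2 region held a PU.1 match at -225 and the Cd209a region a composite element at -9 on the opposite strand. Of the members not printed, Itgam held PU.1 matches at -84, -15 and 32, Itgax held a STAT6 match at -127, and Epcam held none of these letters in its window; Sirpa was not among the RefSeq regions used here. These matches are descriptions of letters and not of bound sites.

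The libraries held 3240877 to 10121198 UMIs in the MC38 groups and 5327146 to 43776342 in the Panc02-SIY groups. Cell barcodes recurred between libraries of one tumor: the median number shared was 964.5 for MC38 pairs, or 83.3% of the smaller library, and 82.0 (5.54%) for Panc02-SIY pairs. The sharing crossed the treatments, with a median of 964.5 (83.2%) between an untreated and an irradiated MC38 library and 975.5 (83.9%) between MC38 libraries of the same treatment, while libraries of different tumors shared at most 3. Each barcode was therefore kept only in the library of its tumor where it had most UMIs, which left 2632 of 9843 MC38 and 18136 of 18835 Panc02-SIY barcodes. The labels number 4 replicates a group while the methods of the study describe 3 animals a group, so the p-values measure the spread between these libraries, which may be technical in part. For MC38 they rest on how shared barcodes were assigned between untreated and irradiated libraries. The part of this sharing in the radiation contrasts was not tested, since using all barcodes puts the shared ones back. Values with all barcodes as deposited are given where a result rests on them. In that setting the MC38 libraries hold largely the same barcodes, so their SDs do not measure a spread between separate sets of cells.

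Barcodes were clustered without the 7 genes, so that these could be read afterwards, and named from markers. The clusters with dendritic cell markers (cDC-like) held 58 barcodes in untreated MC38, 56 in irradiated MC38, 229 in untreated Panc02-SIY and 268 in irradiated Panc02-SIY. Subclusters with type 1 markers (DC1-like) and with mregDC markers (mregDC-like) could be named. The cDC-like barcodes also held 3 subclusters that were given no dendritic subset name here. These were subcluster 0 (109 barcodes low in UMIs, 71 of them untreated Panc02-SIY, led by Ube2c and Top2a), subcluster 7 (25, led by Siglech and Cox6a2) and subcluster 9 (21, led by Nkg7, Gzmb and Cd3g). No subcluster could be named type 2 without the member genes: the subclusters with most type 2 markers also carried monocyte or macrophage markers and are called DC2-marker clusters 1, 4 and 6 by their number, which is not a cell type name. Cluster 1 (106 barcodes, led by Mmp12 and Cxcl10) and cluster 6 (45 barcodes, led by Ccl9 and Cd209a) came mainly from Panc02-SIY, whereas cluster 4 (58 barcodes) came from MC38 alone. Set against the other dendritic cell subclusters, cluster 4 had 9 of 14 macrophage markers raised and 3 of 10 type 2 markers, so the naming rule called it macrophage. It is kept here under its number, and values without it are given where a result rests on it. Since the tumors fell into different clusters, they were not tested against each other within the DC2-marker clusters.

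Values are CPM, the usual scaling of counts to depth: the UMIs of a gene were divided by all UMIs of the summed barcodes of a population in a library, so that a level is a share of the RNA read and not an amount per cell. Libraries with fewer than 10 barcodes of a population, or 3 of a dendritic cell subcluster, were left out. Both thresholds left 3 untreated and 2 irradiated MC38 libraries for cDC-like barcodes, and 3 and 3 for the DC2-marker clusters, with all 4 libraries in each Panc02-SIY group.

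Cd209a and Ccl17 UMIs lay mostly in cDC-like barcodes, while those of Sirpa, Itgam and Itgax lay mostly in others. Of all Cd209a UMIs, cDC-like barcodes held 90.7% in MC38 (407 UMIs) and 87.4% in Panc02-SIY (2313 UMIs). Of all Ccl17 UMIs, cDC-like barcodes held 80.5% of 1979 in MC38 and 58.8% of 345 in Panc02-SIY. The rest of Ccl17 lay mainly in macrophage-like barcodes in MC38 (14.9%) and monocyte-like barcodes in Panc02-SIY (25.8%). Epcam split by tumor, since cDC-like barcodes held 83.6% of its 286 UMIs in MC38 but 12.4% of 628 in Panc02-SIY, where T cell-like barcodes held 51.8%. In MC38 the cDC-like barcodes include cluster 4, which the naming rule called macrophage. That cluster held 314 of the Cd209a, 1102 of the Ccl17 and 214 of the Epcam UMIs of MC38.

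Macrophage-like barcodes, which made up a mean of 62.5% of untreated MC38 and 6.93% of untreated Panc02-SIY barcodes, carried 95.4% of Sirpa UMIs, 95.7% of Itgam UMIs and 88.0% of Itgax UMIs in MC38. In Panc02-SIY they carried 64.6% of Sirpa and 59.2% of Itgax, while Itgam was divided among macrophage-like (31.2%), monocyte-like (25.4%) and neutrophil-like (21.6%) barcodes. Mgl2 followed macrophage-like barcodes in MC38 (73.7%) and was shared by monocyte-like (40.2%) and cDC-like (38.8%) barcodes in Panc02-SIY.

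**Figure D1:**
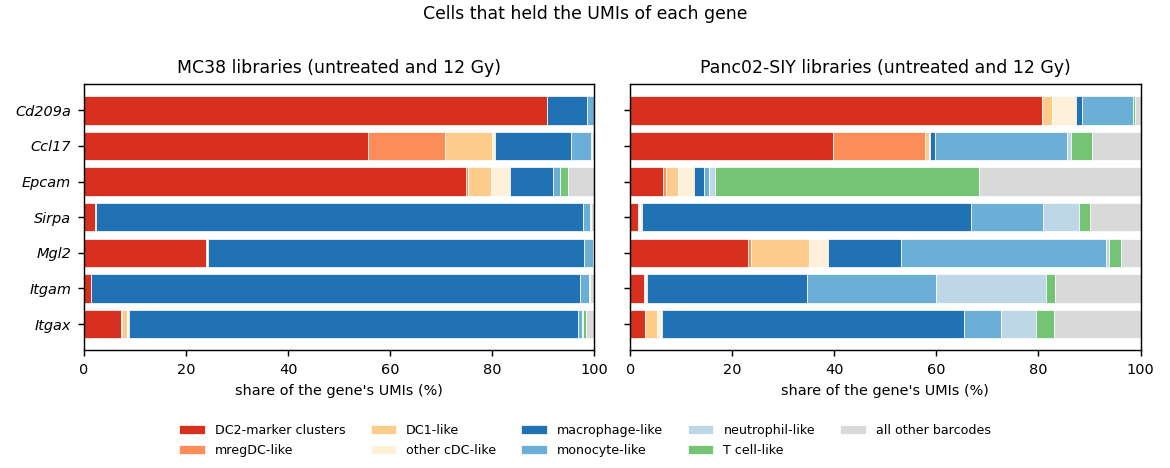
Share of each gene's UMIs (percent, horizontal axis) carried by each cell population (colored segments) over the MC38 libraries and over the Panc02-SIY libraries. Each member gene has a stacked bar. Cd209a sits with cDC-like barcodes in both tumors (90.7% and 87.4%), whereas Sirpa, Itgam and Itgax sit with macrophage-like barcodes in MC38 (88.0% to 95.7%).

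The chemokine Ccl17 had higher means in mregDC-like and cluster 4 barcodes of MC38 than in any population of Panc02-SIY. Over libraries of both treatments its mean was 1323 ± 1732 CPM (SD, n = 3) in MC38 mregDC-like barcodes, 732 ± 510 (n = 6) in cluster 4, 92.7 ± 108 (n = 7) in Panc02-SIY cluster 1 and 59.4 ± 68.4 (n = 8) in Panc02-SIY mregDC-like barcodes. The first of these means rests mainly on 1 library with 3302 CPM. The MC38 libraries behind it held only 3, 5 and 10 mregDC-like barcodes. The MC38 DC1-like barcodes held 1762 CPM in the only library with enough of them, and 762 CPM over all their 13 barcodes. Only 2 of these 13 had a Ccl17 UMI, so the values are not a level of the subset. Cluster 6 of Panc02-SIY had no Ccl17 UMI in the libraries used. The ranges of neighbours in this order overlapped, and in Panc02-SIY cluster 1 and mregDC-like barcodes single libraries were at 0 as well. In macrophage-like barcodes the mean was 8.64 ± 17.3 CPM in MC38 and 0.120 ± 0.245 in Panc02-SIY (n = 8 each). Monocyte-like barcodes of Panc02-SIY averaged 5.56 ± 14.3 CPM (n = 8).

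Cd209a had the opposite order among the DC2-marker clusters. It averaged 1484 ± 351 CPM in Panc02-SIY cluster 6 (n = 6), 947 ± 648 in Panc02-SIY cluster 1 (n = 7) and 234 ± 227 in MC38 cluster 4 (n = 6). Panc02-SIY monocyte-like barcodes averaged 29.8 ± 28.6 CPM, DC1-like 18.2 ± 22.1 and mregDC-like 1.21 ± 3.41. Macrophage-like barcodes held 1.05 ± 1.63 CPM in MC38 and 1.99 ± 3.19 in Panc02-SIY, and neutrophil-like barcodes of Panc02-SIY had no Cd209a UMI. Mgl2, by contrast, averaged 522 ± 323 CPM in cluster 4 but also 82.3 ± 27.7 in MC38 macrophage-like barcodes, against 10.97 ± 17.3 in those of Panc02-SIY. In Panc02-SIY it averaged 149 ± 140 CPM in cluster 1, 217 ± 478 in cluster 6 and 69.7 ± 65.7 in monocyte-like barcodes, which do not differ beyond their spread.

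Epcam averaged 145 ± 68.5 CPM in MC38 cluster 4, 22.2 ± 20.5 in Panc02-SIY cluster 1 and 9.45 ± 14.7 in cluster 6. Lymphocytes carried it in Panc02-SIY, at 28.6 ± 13.3 CPM in regulatory T cell-like, 29.5 ± 36.1 in B cell-like and 5.84 ± 1.72 in T cell-like barcodes, levels that overlap those of clusters 1 and 6. Macrophage-like barcodes held 0.753 CPM in MC38 and 0.513 in Panc02-SIY.

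The CD47 receptor gene Sirpa had lower means in each dendritic cell subset than in the macrophage-like barcodes of the same tumor. Macrophage-like barcodes averaged 719 ± 136 CPM in Panc02-SIY and 252 ± 29.6 in MC38, Panc02-SIY monocyte-like 396 ± 48.9 and neutrophil-like 373 ± 48.5. Clusters 1, 6 and 4 averaged 189 ± 33.5, 163 ± 41.1 and 131 ± 41.2 CPM and overlapped, with Panc02-SIY mregDC-like (44.5 ± 31.0) and DC1-like (20.2 ± 20.01) barcodes below them and T cell-like barcodes at 10.1 ± 5.22.

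Itgam, the CD11b gene, stood at 500 ± 25.9 CPM in neutrophil-like and 312 ± 36.8 in monocyte-like barcodes of Panc02-SIY, 258 ± 43.1 in MC38 and 166 ± 124 in Panc02-SIY macrophage-like barcodes. Clusters 6, 1 and 4 followed with 196 ± 88.8, 154 ± 78.1 and 84.3 ± 40.2 CPM. Natural killer cell-like barcodes of Panc02-SIY held 118 ± 28.5 CPM, within the range of the DC2-marker clusters, and T cell-like barcodes 3.67 ± 1.60.

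Itgax, the CD11c gene, did not separate dendritic cells from other myeloid cells. It averaged 491 ± 66.7 CPM in Panc02-SIY macrophage-like barcodes, 304 ± 78.7 in cluster 4, 294 ± 44.8 in neutrophil-like barcodes and 282 ± 86.5 in cluster 1. Cluster 6 (199 ± 69.4), DC1-like (196 ± 68.7), MC38 macrophage-like (168 ± 39.1), monocyte-like (164 ± 59.1) and natural killer cell-like barcodes (147 ± 31.7) overlapped one another. The mregDC-like barcodes of Panc02-SIY were low with 25.8 ± 31.0 CPM, near T cell-like barcodes with 13.3 ± 4.81.

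**Figure D2:**
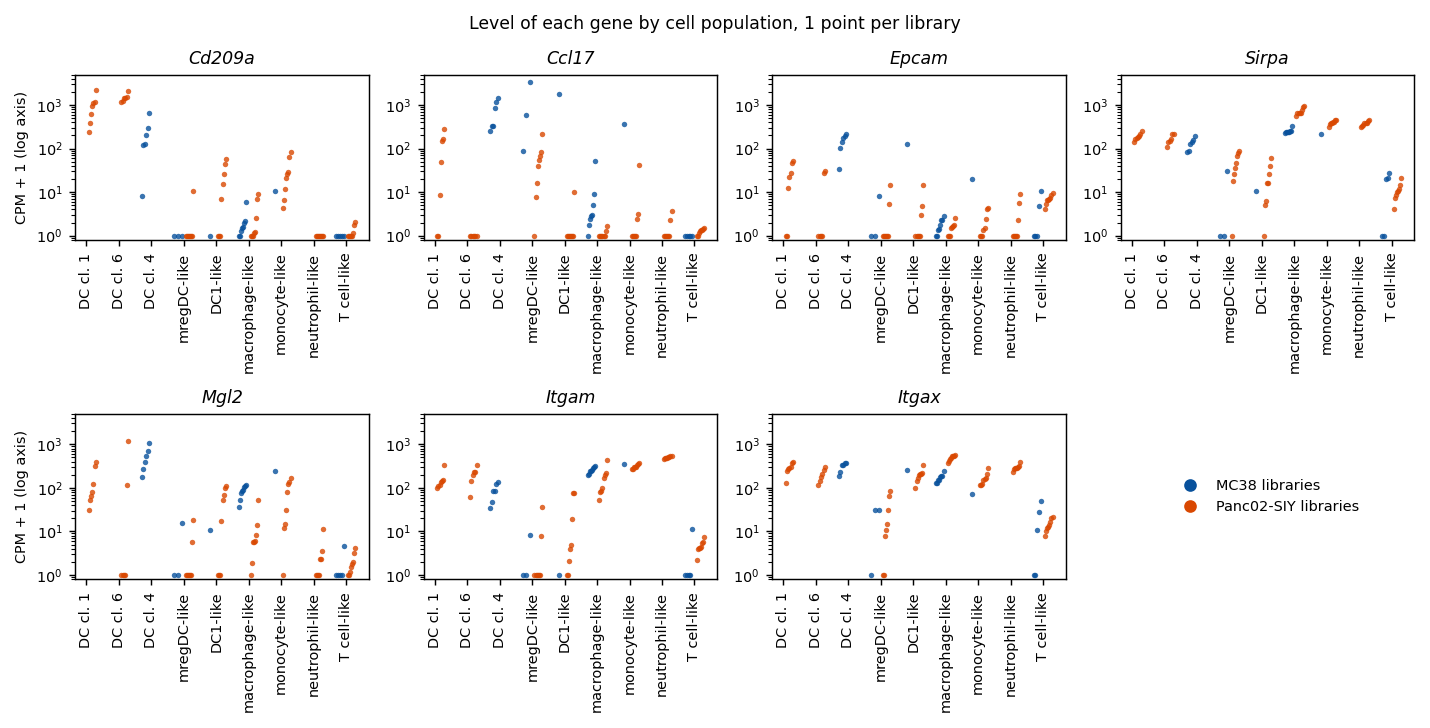
CPM plus 1 on a log axis of each member gene in dendritic cell clusters, macrophage-, monocyte-, neutrophil- and T cell-like barcodes, 1 point per library. Points are colored by tumor. Cd209a is high in clusters 1 and 6 (means of 947 and 1484 CPM in Panc02-SIY) and Ccl17 in cluster 4 (732 CPM) and in MC38 mregDC-like barcodes, while Itgax spans all myeloid populations.

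Cluster 4, found only in MC38 (26 untreated and 32 irradiated barcodes), held 55.7% of all MC38 Ccl17 UMIs and 77.1% of all MC38 Cd209a UMIs. Ccl17 stood at 842, 331 and 248 CPM in untreated libraries 1, 3 and 4 and at 336, 1474 and 1164 CPM in irradiated libraries 2, 3 and 4. Cd209a stood at 292, 128 and 654 CPM in the untreated and 118, 7.17 and 206 CPM in the irradiated libraries. The treatments overlapped for both genes.

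Cluster 4 carried 9 of 14 macrophage markers above the other dendritic cell subclusters and had Fcgr1 and Ms4a6d among its 10 leading genes, beside Ccl17 and Mgl2. Its levels of single macrophage markers, picked here after their values were seen, were below those of macrophage-like barcodes. The Fcγ receptor gene Fcgr1 stood at 253 CPM against 407 in macrophage-like barcodes, the complement gene C1qa at 153 against 4266, Apoe at 259 against 7563 and Ms4a7 at 14.3 against 752, while Mertk was at 0 against 48.6. Some genes of the dendritic lineage, also picked after their values were seen, were read in the same cluster. The growth factor receptor gene Flt3 stood at 51.3 CPM and the transcription factor gene Zbtb46 at 37.8. The MHC class II chaperone gene H2-DMb2 stood at 547 CPM. Their levels in other populations are not given here, so these values do not settle the identity of the cluster. The naming rule called it macrophage. The adhesion genes Cdh1 (178 CPM) and Cldn1 (83.4 CPM) accompanied Epcam there, while the keratin gene Krt8 and the Langerhans lectin gene Cd207 were at 0 and Krt18 was at 2.1 CPM. The part of other cells or shared barcodes in these levels was not tested.

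The UMIs of Ccl17 were concentrated in a few barcodes. In untreated MC38, 551 cDC-like Ccl17 UMIs came from 23 barcodes, of which the richest held 181 (32.8%) and the richest 5 held 81.7%. The richest 5 barcodes held 71.0% of 1043 UMIs in irradiated MC38, 76.2% of 21 in untreated Panc02-SIY and 65.4% of 182 in irradiated Panc02-SIY. For Cd209a in untreated MC38 a single barcode held 134 of 254 UMIs (52.8%), whereas in Panc02-SIY the richest 5 barcodes held 33.4% without and 22.7% with radiation. The MC38 levels of both genes therefore rest on few cells.

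Per barcode, Ccl17 was detected in 37 of 63 MC38 barcodes of the DC2-marker clusters (58.7%, exact 95% interval 45.6 to 71.0) and in 14 of 146 of Panc02-SIY (9.59%, 5.34 to 15.6). Cd209a had the reverse order, with 24 of 63 (38.1%, 26.1 to 51.2) in MC38 and 116 of 146 (79.5%, 72.0 to 85.7) in Panc02-SIY. The median depth of these barcodes was 25771 UMIs in MC38 and 12214 in Panc02-SIY, and intervals cover counting error only. Here and below they pool barcodes over libraries and do not test the tumors against each other. Of the 63 MC38 barcodes, 58 were in cluster 4, which had 0 in Panc02-SIY, so different clusters stand side by side. Ccl17 was also chosen for its difference between untreated tumors. After each barcode was thinned to 1000 UMIs the shares were 26.2% and 2.74% for Ccl17 and 18.03% and 45.9% for Cd209a. T cell-like barcodes, with median depths of 5753 UMIs in MC38 and 7772 in Panc02-SIY, had a Ccl17 UMI in 1.05% and 0.175% and a Cd209a UMI in 0% (0 of 95) and 0.156%.

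Within the 63 MC38 barcodes, Mgl2 was detected in 41 and Epcam in 26, and Ccl17 occurred with Mgl2 in 27, with Epcam in 20 and with Cd209a in 15. Within the 146 Panc02-SIY barcodes, Mgl2 was detected in 35 and Epcam in 17, and Ccl17 occurred with Cd209a in 12, with Mgl2 in 7 and with Epcam in 2. Epcam was detected in 41.3% (29.0 to 54.4) of MC38 and 11.6% (6.93 to 17.99) of Panc02-SIY barcodes, and in 3.16% and 5.28% of T cell-like barcodes. Thinned to 1000 UMIs, its share in the DC2-marker clusters was 9.84% in MC38 and 1.37% in Panc02-SIY.

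Radiation of MC38 tumors was compared first. Tests used edgeR's quasi-likelihood fit with Benjamini-Hochberg adjustment over all genes of a population, and to pass, a gene needed an adjusted p under 0.1 together with more than a 1.3-fold change. The fits on all CD45+, cDC-like, DC2-marker cluster and macrophage-like barcodes gave 25 tests of members, of which 1 passed, Itgax in macrophage-like barcodes, with 5 at an unadjusted p below 0.05 and 2 called by DESeq2. Itgax stood at 151, 184, 126 and 128 CPM in untreated and at 246, 179, 183 and 150 CPM in irradiated macrophage-like barcodes. The irradiated libraries were higher on the whole but the ranges overlapped. The log2 fold change was 0.43 ± 0.14 (SE, adjusted p = 0.0560), in a fit where 12.9% of 10303 genes passed. The call was lost with all barcodes as deposited (adjusted p = 0.128) and without irradiated replicate 1 (0.143), untreated replicate 3 (0.123) or untreated replicate 4 (0.129). The other macrophage-like members gave 0.41 ± 0.24 for Itgam (adjusted p = 0.318), 0.19 ± 0.13 for Sirpa (0.414) and 0.18 ± 0.61 for Mgl2 (0.918).

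Ccl17 in MC38 cDC-like barcodes stood at 1079, 612 and 227 CPM in untreated libraries 1, 3 and 4 and at 1242 and 967 CPM in irradiated libraries 3 and 4. The untreated library 1 lay between the irradiated ones. The log2 fold change was 0.92 ± 0.85 (adjusted p = 0.988). With all barcodes as deposited the mean was 647 ± 316 CPM in untreated and 1042 ± 314 in irradiated MC38. These means cover 4 libraries each, which share most of their barcodes. In the DC2-marker clusters the untreated libraries held 746, 308 and 241 CPM and the irradiated ones 252, 1474 and 1152 CPM, with a log2 fold change of 1.35 ± 0.90 (adjusted p = 0.996).

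No member passed in MC38 dendritic cells by edgeR. In cDC-like barcodes 0 of 7 passed, with 1 at an unadjusted p below 0.05 and 0 called by DESeq2, and 0.03% of 9994 genes passed in all. In the DC2-marker clusters 0 of 7 passed, again with 1 at an unadjusted p below 0.05 and 0 by DESeq2, against 0.102% of 7840 genes. Cd209a, at 249, 83.9 and 590 CPM in untreated and 5.88 and 140 CPM in irradiated cDC-like barcodes, had a log2 fold change of -1.84 ± 1.19 (adjusted p = 0.960), and with all barcodes as deposited means of 210 ± 202 and 126 ± 96.8 CPM. Epcam (111, 166 and 178 against 115 and 73.4 CPM) had -0.63 ± 0.47 (adjusted p = 0.984). Both genes overlapped between treatments. Itgax (238, 177 and 255 against 356 and 270 CPM) did not overlap and had 0.60 ± 0.28 (adjusted p = 0.925).

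Summed over all CD45+ barcodes of MC38, where fewer cells of a type and less RNA per cell cannot be told apart, 0 of 7 members passed, with 2 at an unadjusted p below 0.05 and 1 called by DESeq2, while 11.7% of 12447 genes passed. Itgam stood at 170, 214, 189 and 244 CPM in untreated and 263, 231, 258 and 256 CPM in irradiated libraries (0.40 ± 0.15, adjusted p = 0.107). Ccl17 stood at 48.2, 2.63, 49.5 and 8.47 CPM against 111, 7.31, 145 and 60.0 CPM (1.64 ± 0.88, adjusted p = 0.277). The groups overlapped for both genes, and Ccl17 ranged widely between libraries of 1 group.

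Radiation of Panc02-SIY tumors gave 34 tests of members, of which 4 passed, all higher after radiation, with 9 at an unadjusted p below 0.05 and 7 called by DESeq2. They were Sirpa and Itgam in all CD45+ barcodes, Sirpa in cDC-like and Itgam in macrophage-like barcodes. With all barcodes as deposited 7 passed.

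Itgam in macrophage-like barcodes of Panc02-SIY stood at 83.5, 50.7, 81.4 and 96.8 CPM in untreated and 435, 218, 170 and 196 CPM in irradiated libraries. Each irradiated library was above each untreated one. The log2 fold change was 1.69 ± 0.27 (adjusted p = 0.00554), and 1 of 4 members passed against 4% of 10303 genes. Within cluster 7, which held most macrophage-like barcodes of Panc02-SIY, Itgam stood at 45.7, 82.0 and 105 CPM in untreated libraries 2 to 4 and at 288, 181, 140 and 207 CPM in the irradiated ones, again without overlap. The sum of 10 monocyte markers in macrophage-like barcodes ranged from 190 to 386 CPM in untreated and from 382 to 2405 CPM in irradiated libraries, and its part in the result was not tested. Sirpa (701 ± 175 and 738 ± 108 CPM), Itgax (436 ± 46.3 and 545 ± 16.9 CPM) and Mgl2 (14.5 ± 25.5 and 7.42 ± 3.71 CPM, n = 4 each) did not pass, with adjusted p of 0.547, 0.186 and 0.964.

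Sirpa in cDC-like barcodes of Panc02-SIY stood at 64.6, 56.5, 67.3 and 32.2 CPM in untreated and 122, 119, 137 and 89.7 CPM in irradiated libraries, without overlap. The log2 fold change was 1.10 ± 0.24 (adjusted p = 0.0410), with 1 of 7 members passing against 0.49% of 9994 genes. The call was lost without irradiated replicate 1 (adjusted p = 0.109) or 3 (0.185), without untreated replicate 2 (0.107) or 4 (0.285), and when the member genes took part in clustering (0.163). The make-up of the cDC-like barcodes differed between the groups as well, since the DC2-marker clusters formed 17.6% ± 8.86 of them in untreated and 40.1% ± 4.34 in irradiated libraries, with ranges of 9.80% to 30.2% and 36.5% to 46.3%. Inside the DC2-marker clusters Sirpa stood at 138, 201, 137 and 143 CPM in untreated and 196, 195, 198 and 181 CPM in irradiated libraries, which overlapped (0.38 ± 0.26, adjusted p = 0.937). In the remaining cDC-like barcodes it stood at 38.5, 39.6, 43.0 and 17.8 CPM against 25.8, 69.7, 78.8 and 41.5 CPM, which also overlapped. The part of the make-up in the difference was not tested.

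Ccl17 was low in Panc02-SIY dendritic cells in both treatments. In cDC-like barcodes it stood at 2.58, 22.6, 5.05 and 2.06 CPM in untreated and at 0, 84.4, 84.7 and 24.5 CPM in irradiated libraries, where the 0 allows up to 11.1 CPM. Irradiated libraries 2 to 4 were above each untreated one and library 1 was below them all. The log2 fold change of 2.75 ± 1.02 did not pass (adjusted p = 0.396), nor did 1.96 ± 1.40 in the DC2-marker clusters (0, 139, 0 and 5.95 against 0, 147, 131 and 41.4 CPM, adjusted p = 0.9505) or 2.22 ± 1.47 in mregDC-like barcodes (6.92, 55.0, 37.8 and 14.996 against 0, 82.5, 212 and 66.0 CPM, adjusted p = 0.999). Monocyte-like barcodes had no Ccl17 UMI in the 4 untreated libraries and 0, 1.46, 40.9 and 2.12 CPM in the irradiated ones.

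Cd209a in Panc02-SIY cDC-like barcodes stood at 382, 140, 333 and 80.8 CPM in untreated and 1146, 439, 320 and 359 CPM in irradiated libraries. The ranges overlapped and the log2 fold change was 1.25 ± 0.80 (adjusted p = 0.678). Inside the DC2-marker clusters the values were 1348, 1316, 1295 and 476.4 CPM against 1995, 1003, 595 and 959 CPM, with a log2 fold change of 0.05 ± 0.75 (adjusted p = 0.999). Itgam followed the same course, with 59.4, 24.2, 35.3 and 13.02 against 182, 85.8, 79.0 and 63.2 CPM in cDC-like barcodes, which did not overlap (1.66 ± 0.46, adjusted p = 0.182), and 148, 201, 131 and 101 against 293, 170, 125 and 146 CPM in the DC2-marker clusters, which did (0.36 ± 0.33, adjusted p = 0.968).

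The remaining Panc02-SIY dendritic cell and monocyte tests gave no call by edgeR. In the DC2-marker clusters 0 of 7 members passed, with 0 at an unadjusted p below 0.05 and 0 by DESeq2, against 0.0255% of 7840 genes. In mregDC-like barcodes 0 of 3 passed, with 0 and 0 likewise, against 0.213% of 6117 genes, and in monocyte-like barcodes 0 of 6 passed, with 0 and 0, against 0.335% of 8052 genes. Monocyte-like Sirpa (462, 407, 447 and 308 against 413, 382, 393 and 359 CPM) and Itgam (277, 308, 300 and 295 against 347, 333, 374 and 264 CPM) overlapped between treatments, with log2 fold changes of -0.10 ± 0.14 (adjusted p = 0.898) and 0.12 ± 0.14 (0.864).

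Over all CD45+ barcodes of Panc02-SIY, 2 of 7 members passed, against 14.7% of 12447 genes. Itgam stood at 65.7, 39.6, 54.4 and 43.7 CPM in untreated and 166, 120, 141 and 110 CPM in irradiated libraries, without overlap (1.33 ± 0.15, adjusted p = 0.000101). Sirpa stood at 74.6, 135, 130 and 168 CPM against 186, 163, 218 and 242 CPM, with 1 irradiated library inside the untreated range (0.59 ± 0.19, adjusted p = 0.0456). The cells that carry Itgam differed in share between the groups: monocyte-like barcodes made up a mean of 2.48% of untreated and 7.08% of irradiated libraries, and neutrophil-like barcodes 7.72% and 13.2%. Their part in the results was not tested. Cd209a (23.2, 7.29, 20.6 and 2.86 against 60.1, 28.1, 31.6 and 23.0 CPM) did not pass (1.39 ± 0.70, adjusted p = 0.218).

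**Figure D3:**
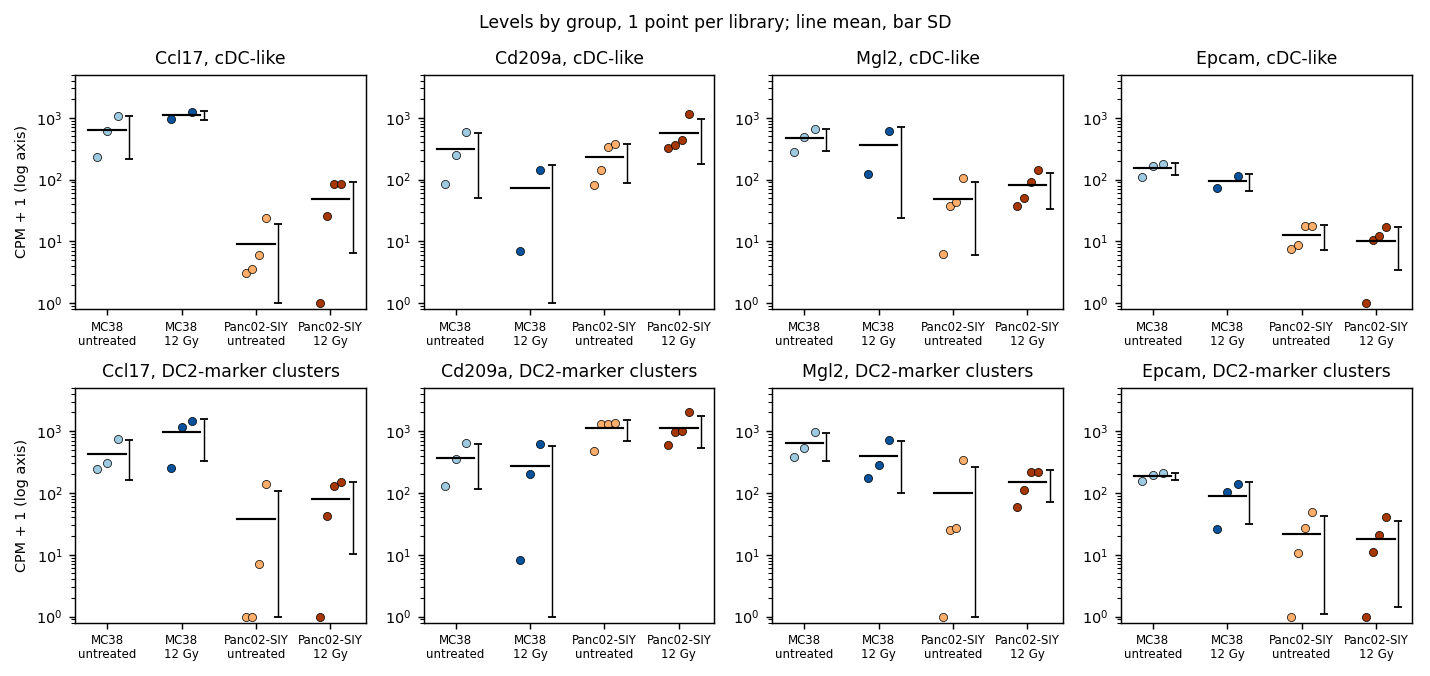
CPM on a log axis of Ccl17, Cd209a, Mgl2 and Epcam in cDC-like barcodes and in the DC2-marker clusters of the 4 groups, 1 point per library, with the line at the mean and the bar 1 SD each way. Ccl17 and Epcam of the MC38 groups lie above those of the Panc02-SIY groups in cDC-like barcodes (Ccl17 means of 639 and 1104 against 8.07 and 48.4 CPM), while Cd209a overlaps between the untreated tumors and is lower in irradiated MC38 (5.88 and 140 CPM) than in irradiated Panc02-SIY (320 to 1146 CPM).

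The untreated tumors were compared next, with MC38 given relative to Panc02-SIY; these untreated libraries also serve as the controls of the radiation contrasts. Apart from Ccl17, 18 tests of members were made, of which 10 passed higher and 2 lower in MC38. In cDC-like barcodes 3 of 6 members passed, all higher in MC38, against 10.1% of 9994 genes. Epcam stood at 111, 166 and 178 CPM in MC38 and 7.75, 6.45, 16.8 and 16.4 CPM in Panc02-SIY, each MC38 library above each Panc02-SIY one (3.62 ± 0.44, adjusted p = 9.04e-05). Mgl2 stood at 275, 653 and 492 CPM against 5.17, 107, 42.1 and 36.3 CPM (3.35 ± 0.78, adjusted p = 0.0357). Sirpa stood at 137, 97.1 and 143 CPM against 64.6, 56.5, 67.3 and 32.2 CPM (1.28 ± 0.27, adjusted p = 0.00523). All of these ranges were apart. The Mgl2 call was lost without untreated MC38 replicate 3 (adjusted p = 0.119), on thinned libraries (0.113) and with the members in clustering (0.170), and the Sirpa call on thinned libraries (0.205).

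These differences were read with cluster 4 among the cDC-like barcodes. Without the DC2-marker clusters, 1 untreated and 1 irradiated MC38 library kept enough cDC-like barcodes, so values are given with no test. Mgl2 then stood at 6.61 and 13.97 CPM in MC38, inside the range of 4.80 to 79.3 CPM of the 8 Panc02-SIY libraries, so that its higher level in MC38 was not seen outside the DC2-marker clusters. Sirpa stood at 33.0 and 27.9 CPM, inside the Panc02-SIY range of 17.8 to 78.8 CPM, and Itgax at 185 and 55.9 CPM, inside 51.6 to 196 CPM. Epcam stood at 85.9 CPM in untreated and 6.99 CPM in irradiated MC38, against at most 13.6 CPM in Panc02-SIY. Ccl17 stood at 1216 CPM in untreated and 552 CPM in irradiated MC38, against at most 43.2 CPM in Panc02-SIY. Both MC38 values lay above the Panc02-SIY libraries, but each comes from 1 library, where a single barcode can set the level. The untreated library was replicate 3, whose 4 DC1-like barcodes held 1762 CPM of Ccl17. A higher level outside the DC2-marker clusters is therefore not shown for untreated MC38. The richest cDC-like barcode of untreated MC38 held 181 of 551 Ccl17 UMIs, and 2 of 13 MC38 DC1-like barcodes had any. The gene lists were also counted between tumors with cluster 4 included.

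Ccl17, chosen for this contrast, stood at 1079, 612 and 227 CPM in cDC-like barcodes of untreated MC38 and 2.58, 22.6, 5.05 and 2.06 CPM in untreated Panc02-SIY, a log2 difference of 6.41 ± 1.00 given with no test. With all barcodes as deposited the means were 647 ± 316 and 7.96 ± 9.64 CPM. In the DC2-marker clusters where 8.89% of all genes passed between untreated tumors, the log2 difference was 4.42 ± 1.28, also with no test. Cd209a (249, 83.9 and 590 against 382, 140, 333 and 80.8 CPM) overlapped between the tumors, with a log2 difference of 0.48 ± 0.88 (adjusted p = 0.814). Itgam (1.35 ± 0.54, adjusted p = 0.171) and Itgax (0.51 ± 0.24, adjusted p = 0.220) did not pass in cDC-like barcodes. In mregDC-like barcodes 0 of 2 members tested passed, with 0 at an unadjusted p below 0.05 and 0 by DESeq2, against 1.01% of 6117 genes.

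Markers of other cells moved with the tumor inside the cDC-like barcodes. The sum of 14 macrophage markers ranged from 788 to 1993 CPM in untreated MC38 and from 253 to 566 in untreated Panc02-SIY, compared with 25691 to 28540 and 11857 to 17194 CPM in macrophage-like barcodes, and Mertk and Gpnmb were at 0 in MC38 cDC-like barcodes. The sum of 10 T cell markers ranged from 0 to 30.9 CPM in MC38 and 193 to 741 in Panc02-SIY, and that of 10 monocyte markers from 1693 to 2051 and 947 to 1972 CPM. The sum of 7 tumor and stromal markers, which do not include Epcam, ranged from 132 to 188 and 20.6 to 38.7 CPM. The keratin gene Krt8 and Cldn4 were at 0 in MC38. The adhesion gene Cdh1 is on this list and on that of Langerhans cells. A list of 3 Langerhans cell markers ranged from 180 to 234 and 43.9 to 79.1 CPM, with Cd207 at 0 in MC38. The part of these cells in the member differences was not tested.

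In macrophage-like barcodes of untreated tumors all 4 members tested passed, against 50.9% of 10303 genes, and they went in both directions. Mgl2 was higher in MC38 (113, 83.2, 86.8 and 35.0 against 0, 4.57, 52.6 and 0.842 CPM, log2 difference 3.17 ± 0.90, adjusted p = 0.0114), as was Itgam (200, 246, 207 and 261 against 83.5, 50.7, 81.4 and 96.8 CPM, 1.70 ± 0.27, adjusted p = 7.66e-05). Sirpa was lower in MC38 (243, 238, 239 and 249 against 952, 646, 662 and 544 CPM, -1.31 ± 0.13, adjusted p = 4.26e-08), and so was Itgax (151, 184, 126 and 128 against 418, 485, 460 and 381 CPM, -1.41 ± 0.15, adjusted p = 4.65e-08). Only the Mgl2 ranges overlapped. Clusters 6, 10 and 23 held most MC38 and clusters 7, 20 and 22 most Panc02-SIY macrophage-like barcodes. Within cluster 6, which both tumors entered, Sirpa averaged 250 ± 31.5 CPM in MC38 and 677 ± 150 in 3 Panc02-SIY libraries, whereas Mgl2 averaged 84.3 ± 29.4 and 112 ± 75.5 CPM, against 3.27 ± 2.62 in Panc02-SIY cluster 7.

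Summed over all CD45+ barcodes of untreated tumors, 5 of 6 members tested passed, all higher in MC38, against 61.1% of 12447 genes. Itgam (170, 214, 189 and 244 against 65.7, 39.6, 54.4 and 43.7 CPM) had a log2 difference of 2.22 ± 0.16 (adjusted p = 7.56e-09) and Mgl2 (106, 74.2, 124 and 48.7 against 7.23, 7.73, 18.4 and 1.42 CPM) one of 3.62 ± 0.66 (adjusted p = 0.000283), both without overlap. Sirpa (0.98 ± 0.19, adjusted p = 0.000304) and Itgax (0.53 ± 0.17, adjusted p = 0.0125) were higher in MC38 here but lower per UMI of macrophage-like barcodes, beside a macrophage-like share of 62.5% against 6.93%. Epcam (0.84 ± 0.38, adjusted p = 0.0612) lost its call without untreated MC38 replicate 3, with a log2 difference of 0.29 (adjusted p = 0.486), and without untreated Panc02-SIY replicate 3 (0.103).

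**Figure D4:**
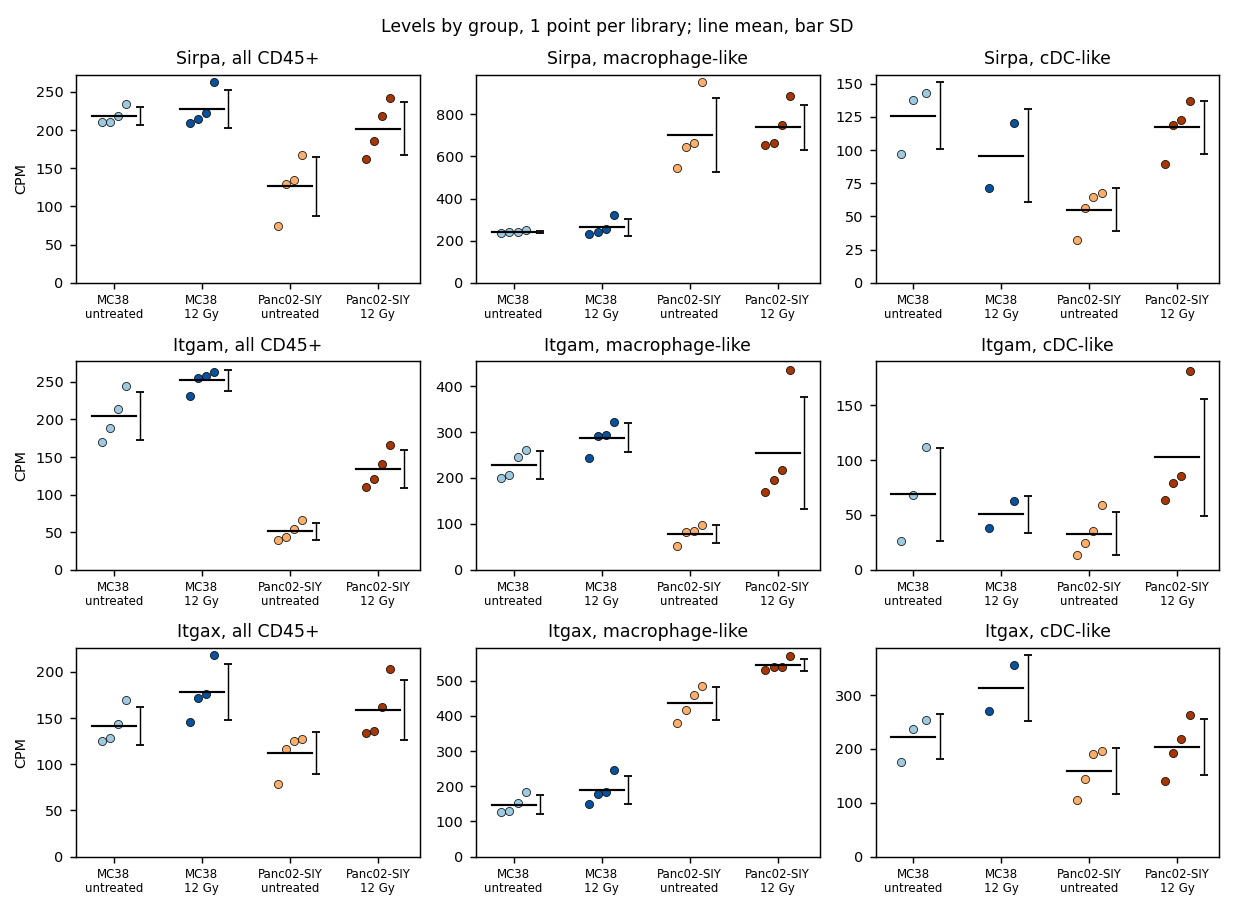
CPM on a linear axis from 0 of Sirpa, Itgam and Itgax in all CD45+, macrophage-like and cDC-like barcodes of the 4 groups, 1 point per library, with the line at the mean and the bar 1 SD each way. Sirpa and Itgax in macrophage-like barcodes are lower in MC38 (Sirpa means of 242 and 263 CPM) than in Panc02-SIY (701 and 738 CPM), and Itgam of irradiated Panc02-SIY lies above that of untreated Panc02-SIY.

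The irradiated tumors gave 18 tests of members, of which 10 passed higher and 3 lower in MC38. Those higher include Ccl17 in cDC-like and in all CD45+ barcodes, whose tests are not independent of its choice. This contrast shares no library with the previous one, but MC38 barcodes recurred between untreated and irradiated libraries. The MC38 sides of both contrasts are therefore not shown to be independent. In cDC-like barcodes 3 of 7 passed, against 8.42% of 9994 genes. Ccl17 had been named earlier for the interaction, which uses these libraries, so its test here is not independent of that choice. Ccl17 stood at 1242 and 967 CPM in irradiated MC38 and 0, 84.4, 84.7 and 24.5 CPM in irradiated Panc02-SIY, each MC38 library above each Panc02-SIY one (4.58 ± 0.85, adjusted p = 0.0160). Under the alternatives its log2 differences were 4.30 to 5.28, but these use the same libraries and add no independent support. Without one of the 2 irradiated MC38 libraries the remaining one was assumed to vary like the other groups. The Ccl17 means with all barcodes as deposited were 1042 ± 314 and 47.5 ± 42.0 CPM. Epcam stood at 115 and 73.4 CPM against 11.1, 0, 9.63 and 16.3 CPM, also apart (3.36 ± 0.50, adjusted p = 0.000805). Itgax (356 and 270 against 219, 140, 264 and 192 CPM) had 0.81 ± 0.26 (adjusted p = 0.0696), and lost its call without irradiated MC38 replicate 3 (0.454) or 4 (0.155) and without irradiated Panc02-SIY replicate 1 (0.106), 2 (0.156) or 4 (0.118), and in 10 of 19 alternatives in all.

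Other members did not pass between irradiated cDC-like barcodes. Mgl2 (606 and 123 against 37.1, 88.7, 143 and 49.6 CPM) overlapped, with a log2 difference of 2.29 ± 0.81 (adjusted p = 0.157). Cd209a (5.88 and 140 against 1146, 439, 320 and 359 CPM) was lower in each MC38 library, with -2.61 ± 1.16 (adjusted p = 0.257), and averaged 73.1 ± 95.01 CPM in irradiated MC38 or 126 ± 96.8 over 4 libraries with all barcodes as deposited. Sirpa (121 and 71.2 against 122, 119, 137 and 89.7 CPM) had -0.11 ± 0.29 (adjusted p = 0.885). Within the DC2-marker clusters, where 10.6% of all genes passed, the log2 difference was 3.81 ± 0.90 for Ccl17, 2.66 for Epcam, 1.61 for Mgl2 and -2.08 for Cd209a, given with no test.

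In macrophage-like barcodes of irradiated tumors 3 of 4 members passed, against 51.6% of 10303 genes. Sirpa (323, 230, 256 and 242 against 655, 747, 887 and 662 CPM, -1.31 ± 0.13, adjusted p = 4.82e-08) and Itgax (246, 179, 183 and 150 against 539, 540, 532 and 570 CPM, -1.35 ± 0.14, adjusted p = 9.16e-08) were lower in MC38 without overlap. Mgl2 (106, 51.5, 107 and 75.5 against 5.06, 12.8, 4.72 and 7.14 CPM) was higher without overlap (3.66 ± 0.91, adjusted p = 0.00503). Itgam (323, 244, 294 and 292 against 435, 218, 170 and 196 CPM) overlapped and did not pass (0.42 ± 0.25, adjusted p = 0.171). The macrophage-like clusters of each tumor are those named for the untreated libraries.

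Over all CD45+ barcodes of irradiated tumors 7 of 7 members passed, against 58.5% of 12447 genes, 6 higher in MC38 and Cd209a lower. The test of Ccl17 is again not independent of its choice. Ccl17 (111, 7.31, 145 and 60.0 against 0, 5.40, 13.6 and 2.21 CPM) had 4.21 ± 0.98 (adjusted p = 0.00211), with 1 MC38 library inside the Panc02-SIY range. Under the alternatives, on the same libraries, its log2 differences were 3.71 to 5.08. Mgl2 had 3.37 ± 0.65 (adjusted p = 0.000508) and Itgam 1.29 ± 0.15 (2.63e-06). Cd209a (2.89, 17.7, 4.77 and 8.12 against 60.1, 28.1, 31.6 and 23.0 CPM, without overlap) had -1.64 ± 0.79 (adjusted p = 0.0875). Its call was lost without irradiated MC38 replicate 1 (0.147), 3 (0.190) or 4 (0.158) or irradiated Panc02-SIY replicate 1 (0.169).

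Epcam over all CD45+ barcodes of irradiated tumors (0.92 ± 0.40, adjusted p = 0.0566) lost its call without irradiated MC38 replicate 3, with a log2 difference of 0.52 (adjusted p = 0.314), and without irradiated Panc02-SIY replicate 1 (0.137), 2 (0.136) or 4 (0.106). Sirpa (0.53 ± 0.19, adjusted p = 0.0227) lost its call without irradiated Panc02-SIY replicate 1 (0.1003) or 2 (0.115). Itgax (0.52 ± 0.17, adjusted p = 0.0150) fell under the fold threshold without the same libraries, with log2 differences of 0.36 and 0.37.

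**Figure D5:**
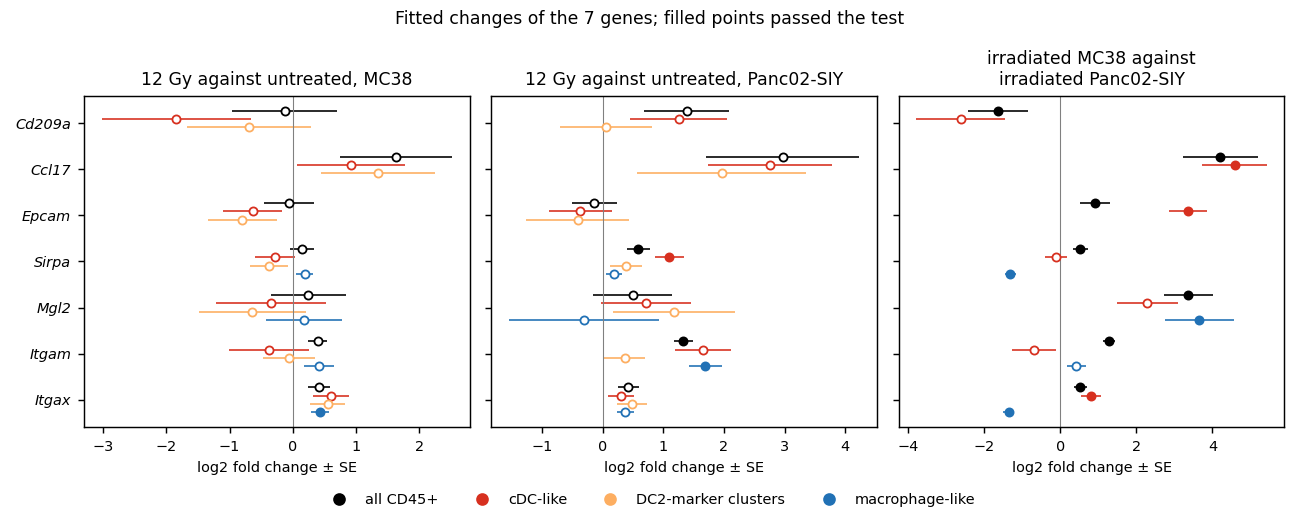
Log2 fold changes of the member genes (points) with their standard errors (bars) by population for radiation in MC38, radiation in Panc02-SIY and irradiated MC38 against irradiated Panc02-SIY; filled points passed the test. Filled points number 1, 4 and 13, and Ccl17 of irradiated tumors is at 4.58 in cDC-like barcodes. The 13 include Ccl17, whose tests are not independent of its choice.

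Whether radiation acted differently in the tumors was tested as an interaction, apart from Ccl17. By edgeR 0 of 16 tests of members passed, with 4 at an unadjusted p below 0.05 and 2 called by DESeq2. The share of all genes that passed was 0.345% in all CD45+, 0% in cDC-like and 0.107% in macrophage-like barcodes. Itgam had the lowest adjusted p, with a log2 interaction of -0.93 ± 0.21 in all CD45+ barcodes (adjusted p = 0.103). Its other values were -1.28 ± 0.36 in macrophage-like (0.354) and -2.03 ± 0.79 in cDC-like barcodes (0.932). Sirpa in cDC-like barcodes had -1.38 ± 0.40 (adjusted p = 0.932). Calls for radiation in 1 tumor and not in the other are therefore not shown to differ between them. For Ccl17 the interaction was -1.83 ± 1.37 in cDC-like and -1.33 ± 1.56 in all CD45+ barcodes, given with no test because Ccl17 had been named for this contrast.

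Other genes of the same pathways are described by lists chosen with earlier results known. The list of 10 genes of type 2 identity had 8 tested members in cDC-like barcodes. The same 10 genes were the type 2 markers that picked the DC2-marker clusters, and Clec10a and H2-DMb2 also helped name the cDC-like barcodes. Their levels are therefore not independent of how the cells were chosen. By edgeR 0 passed with radiation in MC38 (0 at an unadjusted p below 0.05, 0 by DESeq2) and 0 in Panc02-SIY (1 and 0). Between untreated tumors 2 were higher in MC38, H2-DMb2 (2.64 ± 0.29, adjusted p = 1.70e-05) and the inhibitory lectin gene Clec12a (0.91 ± 0.31, 0.0847). Between irradiated tumors 3 were higher, these 2 and the transcription factor gene Klf4 (0.97 ± 0.30, adjusted p = 0.0685). Of all genes, 0.03% and 0.49% passed with radiation in MC38 and Panc02-SIY. Between untreated and between irradiated tumors 10.1% and 8.42% passed, in either direction. The median log2 difference of the 8 was 0.77 between untreated and 0.52 between irradiated tumors, beside -0.08 for all genes tested in both contrasts, and with radiation it was 0.14 in MC38 and 0.57 in Panc02-SIY, beside 0.01 and -0.01.

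A list of 15 genes around Ccl17 held its partner Ccl22, their receptor Ccr4, receptors of GM-CSF and type 2 cytokines, and their signal transducers. In cDC-like barcodes 0 of 14 passed with radiation in MC38 (0 at an unadjusted p below 0.05, 0 by DESeq2) and 0 of 14 in Panc02-SIY (3 and 1), with median log2 fold changes of -0.09 and 0.43 beside 0.01 and -0.01 for all genes tested. Between tumors 2 were higher in untreated MC38 (median 0.06 beside -0.08), and 2 were higher and 3 lower in irradiated MC38 (median -0.26 beside -0.08). The shares of all genes that passed were 0.03% and 0.49% with radiation in MC38 and Panc02-SIY. They were 10.1% between untreated and 8.42% between irradiated tumors, in either direction. Ccl22, which acts on the same receptor, averaged 860 ± 388 CPM in untreated and 2289 ± 557 in irradiated Panc02-SIY mregDC-like barcodes (n = 4 each), with ranges of 526 to 1399 and 1602 to 2790 CPM that did not overlap, and rose by a log2 fold change of 1.52 ± 0.31 (adjusted p = 0.00346). Ccl17 in the same barcodes did not pass, as given above. Csf2ra, the GM-CSF receptor α chain gene, was higher in MC38 cDC-like barcodes between untreated (1.23 ± 0.20, adjusted p = 0.000493) and irradiated tumors (1.08 ± 0.22, 0.00507). Crlf2, a chain of the receptor for the cytokine TSLP, passed between untreated tumors (1.197 ± 0.217, adjusted p = 0.00133). Stat5b (-1.87 ± 0.49, adjusted p = 0.0288), Nfkb1 (-1.45 ± 0.25, 0.00107) and Stat5a (-1.42 ± 0.48, 0.0897) were lower in irradiated MC38 than in irradiated Panc02-SIY.

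Over all CD45+ barcodes 5 of these 15 genes rose with radiation in each tumor, where 11.7% of all genes passed in MC38 and 14.7% in Panc02-SIY, with medians of 0.41 in MC38 and 0.34 in Panc02-SIY beside 0.04 and -0.03 for all genes tested. Il4ra, the interleukin 4 receptor gene, rose by 0.44 ± 0.10 in MC38 (adjusted p = 0.0106) and 0.85 ± 0.09 in Panc02-SIY (9.3e-05). Csf2rb, the shared β chain gene of GM-CSF receptors, rose by 1.27 ± 0.12 in Panc02-SIY (adjusted p = 2.03e-05) and by 0.43 in MC38, and its interaction of -0.84 ± 0.17 passed (adjusted p = 0.0776). In macrophage-like barcodes 4 of 13 rose in MC38 and 2 in Panc02-SIY, where 12.9% and 4% of all genes passed, Il4ra and Csf2rb among them in both.

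A list of 14 partners of SIRPα and the CD11 integrins held Itgb2, the β chain with which both Itgam and Itgax products pair. In macrophage-like barcodes Itgb2 rose with radiation in MC38 (0.47 ± 0.13, adjusted p = 0.0238) and in Panc02-SIY (0.50 ± 0.14, 0.0622). Icam1, an integrin ligand gene, and the kinase gene Fgr also rose in MC38, by 0.52 each, and Icam2 fell by 0.98 in Panc02-SIY. Between untreated tumors 0 genes of the list were higher and 7 of 14 lower in MC38 macrophage-like barcodes, near the 50.9% of all genes that passed there, led by the integrin genes Itgad (-4.03) and Itgal (-1.36), and between irradiated tumors 6 were lower, beside 51.6% of all genes. The medians of the list were -0.41 and -0.25, beside 0.00026 and -0.04 for all genes. In cDC-like barcodes Itgal was lower in MC38 both between untreated (-2.61) and irradiated tumors (-3.30).

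Of 19 C-type lectin genes, 10 were tested in macrophage-like barcodes, where 0 were higher in MC38 and 6 lower between untreated and 8 lower between irradiated tumors, beside 50.9% and 51.6% of all genes that passed in either direction, while Mgl2 was higher, with list medians of -1.04 and -1.37 beside 0.00026 and -0.04 for all genes. In cDC-like barcodes 2 of 14 were higher and 3 lower in MC38 in each of the tumor contrasts (medians -0.63 and -1.40 beside -0.08). Of all genes, 10.1% passed there between untreated and 8.42% between irradiated tumors, in either direction. Clec4n, which encodes the lectin dectin-2, was higher in cDC-like barcodes of untreated MC38 (3.13 ± 0.64, adjusted p = 0.0161), and Clec9a, the type 1 lectin gene, lower (-1.80). Among 8 epithelial and Langerhans cell genes, 3 were tested in cDC-like barcodes. The E-cadherin gene Cdh1 was higher in MC38 between untreated (2.50 ± 0.29, adjusted p = 9.6e-06) and irradiated tumors (1.16 ± 0.29, 0.0215), the same direction as Epcam, and rose with radiation in Panc02-SIY (1.27 ± 0.27, adjusted p = 0.0358), where Epcam did not pass (-0.37 ± 0.52, 0.891). Cd207, the Langerhans cell lectin gene, fell with radiation in the same Panc02-SIY barcodes (-4.02 ± 0.72, adjusted p = 0.0253) and had no UMI in MC38 cDC-like barcodes. In the DC2-marker clusters of both Panc02-SIY groups it was at 0, so the fall lay in other cDC-like barcodes. Whether it reflects Langerhans cells or the make-up of those barcodes was not tested.

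The genes whose levels most resembled those of Cd209a and Ccl17 over the 29 clusters, by Pearson's r of log2(CPM + 20), were mostly low ones. Cd209a was most like its paralog gene Cd209c (r = 0.975, at most 6.58 CPM in any cluster). Next came 4930512J16Rik (r = 0.969, at most 1.92 CPM) and the paralog gene Cd209d (r = 0.968, at most 30.3 CPM). Cyp8b1 (r = 0.967, at most 1.23 CPM) and Frrs1l (r = 0.966, at most 0.411 CPM) followed closely. Ccl17 was most like Flt3 (r = 0.911, at most 239 CPM), then Abca17 (r = 0.911, at most 3.81 CPM) and Scn3a (r = 0.910, at most 1.52 CPM). The interleukin 12 subunit gene Il12b (r = 0.906, at most 834 CPM) and Lrp8os2 (r = 0.901, at most 0.761 CPM) came after them. Clusters share libraries and depth, so these values are descriptions.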

How the data were processed

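The authors deposited UMI counts per gene and cell barcode, which were made with Cell Ranger 3.1.0 after bcl2fastq 2.20.0 on mm10, per the labels and the submitters' processing notes. These counts were used as deposited, with barcodes that recurred within a tumor kept in the library where they had most UMIs. Clustering without the members used scanpy 1.11.5 (2000 variable genes, 30 principal components, 20 neighbors, Leiden resolution 1), and doublets were removed only in an alternative (the top 5%). Counts were summed per library and population and tested with edgeR 4.0.16 (TMM, filter on low counts, robust quasi-likelihood), with DESeq2 1.42.0 as an alternative, in code tested on simulated data. The members and lists were chosen with earlier results of these data known. Named genes were the 7 members, at most 4 passing genes of each list with the largest log2 fold change per contrast and population, the 5 genes most like Cd209a and Ccl17, and cell type markers, of which those given for cluster 4 were picked after their values were seen. The plan foresaw a type 2 cluster, but none could be named, so DC2-marker clusters took its place without a test between tumors. The replicate numbers were not used as pairs in the main fit. Deviations of same-numbered libraries correlated from -0.159 to 0.751 in Panc02-SIY and from -0.0392 to 0.0808 in MC38. For Panc02-SIY replicates 1 to 4 the values were 0.404, -0.159, 0.318 and 0.751 over all CD45+ barcodes. In its macrophage-like barcodes they ranged from 0.0719 to 0.376. A common source of same-numbered libraries was tested only by the replicate block.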

Additional observations from a re-analysis of the deposited data

Results flagged for a closer look

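In groups of 4 libraries, a value was picked out where its gap to the nearest other library was too large a share of the range of the group by Dixon's critical value at 95%. Of 89 groups of member values tested, 10 met this rule, and chance alone picks about 1 in 20. Most lay in dendritic cells of untreated Panc02-SIY. In its DC2-marker clusters, replicate 2 stood apart with 139 CPM of Ccl17 (0 to 5.95 in the others), 341 CPM of Mgl2 (0 to 26.2) and 201 CPM of Sirpa (137 to 143), and replicate 4 with 476.4 CPM of Cd209a (1295 to 1348) and 256 CPM of Itgax (201 to 209). In all its cDC-like barcodes, Ccl17 of replicate 2 stood at 22.6 CPM (2.06 to 5.05). The DC2-marker clusters held 5 barcodes in replicate 2 and 12 in replicate 4, so the values flagged there rest on few cells.

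Among irradiated Panc02-SIY libraries, Cd209a in cDC-like barcodes of replicate 1 stood at 1146 CPM (320 to 439 in the others), Sirpa in the DC2-marker clusters of replicate 4 at 181 CPM (195 to 198), and Ccl17 in monocyte-like barcodes of replicate 3 at 40.9 CPM (0 to 2.12). In macrophage-like barcodes of untreated Panc02-SIY, Mgl2 of replicate 3 stood at 52.6 CPM (0 to 4.57).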

How the results depend on the processing

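Over 30 passing member results, 621 values were computed under other settings: 566 kept direction and call, 55 kept direction and lost the call, and 0 turned direction. The count of passing member tests for radiation in MC38 (1) became 0 with all barcodes as deposited, with an adjusted p below 0.05 or with a log2 fold change above 0.58, 2 with DESeq2, and 3 with a filter on barcodes, without the filter on low counts or with only the 2 groups in the fit. Leaving out a library gave 0 to 2. For radiation in Panc02-SIY (4) it became 7 with all barcodes, without the filter or with DESeq2, 2 with only the 2 groups, and 3 to 5 without a library. Between untreated tumors (12) leaving out a library gave 10 to 13, and between irradiated tumors (13) 10 to 14. For the interaction (0) it became 1 with all barcodes, 3 without the filter, 2 with DESeq2, 1 with the replicate block, and 0 to 1 without a library. With the replicate block the other counts were 1, 5, 12 and 12, and 2 of 30 calls were lost, Cd209a in all CD45+ and Itgax in cDC-like barcodes between irradiated tumors. The means with all barcodes as deposited were added after seeing the data and moved by less than 1 SD for all members in cDC-like barcodes, which for Cd209a in irradiated MC38 still meant 126 in place of 73.1 CPM. With only the 2 groups, Itgam in macrophage-like (adjusted p = 0.122) and Sirpa in all CD45+ barcodes (0.171) no longer passed for radiation in Panc02-SIY. The cause of these moves was not tested. Ccl17 between irradiated tumors is among the passing results counted here, and its re-runs use libraries that entered its choice. The few dendritic cell barcodes of MC38, 58 untreated and 56 irradiated, limit what can be seen there.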
